A study of Mus musculus with 27 samples.

Results

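The vascular endothelial growth factor (VEGF) family comprises secreted ligands and the cell surface receptors through which they act on blood and lymphatic vessels. The 9 genes described here are the ligands *Vegfa*, *Vegfb*, *Vegfc* and *Pgf*, the receptor tyrosine kinases *Flt1*, *Kdr* and *Flt4*, and the co-receptors *Nrp1* and *Nrp2*. They were found by symbol among the 54532 genes of a table of FPKM (fragments counted per gene, divided by gene length and sequencing depth), and each symbol matched 1 row. Bulk RNA sequencing was performed on tibialis anterior muscles of C57BL/6 male mice at 8 weeks of age after volumetric muscle loss (VML), in which 40% of the muscle was excised. The 27 samples comprised 5 muscles with no injury, 5 on day 3, 6 on day 7, 6 on day 14 and 5 on day 21 after excision, none of them given a further treatment or genetic change by the labels. The published methods describe the excision as bilateral and the public record describes it as unilateral. The labels do not say whether each sample came from a separate mouse, so that p-values measure the spread between these samples.

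VEGF-A is the main growth signal of blood vessel endothelium and acts through VEGFR2, the product of *Kdr*. VEGFR1, the product of *Flt1*, binds VEGF-A tightly, signals weakly itself and, in its soluble form, holds ligand away from VEGFR2, while VEGF-B and placental growth factor (*Pgf*) bind VEGFR1 but not VEGFR2. VEGF-C acts mainly through VEGFR3, the product of *Flt4*, on lymphatic vessels, and neuropilins 1 and 2 present VEGF to these receptors and also bind class 3 semaphorins. In skeletal muscle, fibres are a known source of VEGF-A and VEGF-B, and the receptors are found chiefly on the capillaries around the fibres.

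Promoter sequences are shown for the 4 genes that fell together after VML, the ligands *Vegfa* and *Vegfb* and the receptors *Flt1* and *Kdr*. Each is the run of 250 bases before the transcription start in RefSeq (GRCm38.p6), written 5′ to 3′ on the gene's own strand, which is the minus strand for all 4. They lie at chr17:46032378-46032627 for *Vegfa*, chr19:6987652-6987901 for *Vegfb*, chr5:147726012-147726261 for *Flt1* and chr5:75978456-75978705 for *Kdr*. Capitals mark GC boxes, the letters GGGCGG or their reverse complement CCGCCC, which members of the SP1 family of transcription factors can bind.

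Vegfa: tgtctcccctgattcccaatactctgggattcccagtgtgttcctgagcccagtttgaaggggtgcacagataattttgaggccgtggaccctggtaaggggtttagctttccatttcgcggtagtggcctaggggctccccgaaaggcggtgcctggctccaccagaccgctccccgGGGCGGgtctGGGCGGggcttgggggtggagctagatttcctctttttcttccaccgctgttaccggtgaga

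Vegfb: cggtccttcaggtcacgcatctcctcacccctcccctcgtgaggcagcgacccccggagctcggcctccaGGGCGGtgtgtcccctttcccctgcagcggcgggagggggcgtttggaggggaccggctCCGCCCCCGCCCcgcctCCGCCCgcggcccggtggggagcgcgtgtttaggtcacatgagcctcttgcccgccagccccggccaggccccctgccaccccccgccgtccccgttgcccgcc

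Flt1: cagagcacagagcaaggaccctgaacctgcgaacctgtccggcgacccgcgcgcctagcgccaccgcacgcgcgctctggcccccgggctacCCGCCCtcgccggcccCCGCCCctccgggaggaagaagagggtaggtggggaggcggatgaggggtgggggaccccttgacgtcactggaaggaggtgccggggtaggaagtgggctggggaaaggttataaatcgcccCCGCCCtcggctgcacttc

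Kdr: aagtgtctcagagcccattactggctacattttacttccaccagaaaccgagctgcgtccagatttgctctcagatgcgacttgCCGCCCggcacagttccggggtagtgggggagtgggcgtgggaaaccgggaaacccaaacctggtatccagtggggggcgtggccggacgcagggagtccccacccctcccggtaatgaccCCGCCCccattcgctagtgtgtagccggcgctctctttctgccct

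A GC box was present in the windows of all 9 genes, with 1 in *Nrp1*, 2 each in *Vegfa*, *Vegfc*, *Pgf* and *Kdr*, 3 each in *Flt1* and *Flt4*, 4 in *Vegfb* and 5 in *Nrp2*. Of all 32851 promoter windows of this length, 32.74% held at least 1. The GC content of the 9 windows was 59.2% (*Vegfa*) to 76.4% (*Vegfb*), against a median of 52.4% over all windows, and GC-rich windows hold these letters more often. The letters of the hypoxia response element core, ACGTG or GCGTG and their reverse complements CACGT and CACGC, were found 2 times each in *Kdr*, *Vegfb* and *Nrp2*, 1 time each in *Pgf*, *Flt1* and *Nrp1*, and in none of the windows of *Vegfa*, *Vegfc* and *Flt4*, against 38.6% of all windows with at least 1. The TATA box letters TATAAA, or TTTATA on the other strand, were found in *Flt1* alone among the 9 and in 12.37% of all windows. These windows start from 1 RefSeq start site per gene, which for *Pgf*, *Flt4* and *Nrp1* lay 477, 416 and 469 bases inside the gene's outer end in the FPKM table. The windows were not chosen by tissue and a match of letters is not evidence of binding.

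The recovered reads per sample ranged from 14376395 to 24436763 (median 17398586). The deposited FPKM carry a scaling between samples under which 3417 genes were higher and 2899 lower on day 3, and rescaling every sample to the same FPKM sum (TPM) turned this split to 6868 higher and 322 lower. On day 7 the split went from 2189 higher and 2107 lower to 6304 and 209, on day 14 from 1320 and 1649 to 1678 and 107, and on day 21 from 255 and 247 to 42 and 7. This rescaling shifted the median log2 change of all 14630 tested genes to 0.51, 0.48, 0.29 and 0.12 on days 3, 7, 14 and 21. Changes under it are therefore given below after that median is subtracted, unless they are called unsubtracted. By the root mean square difference over all tested genes, 9 of 27 libraries lay nearer to the centre of another group than to that of their own. Day 7 replicate 3 lay nearest to muscle with no injury and day 7 replicate 6 nearest to day 21. Day 14 replicate 1 lay nearest to day 7, day 14 replicates 3 and 6 to day 21, and day 21 replicates 3 and 5 to day 14. The library labelled day 3 replicate 5 lay nearest to day 7, and the library labelled day 7 replicate 5 nearest to day 3. The fits and the ratios below were also run without these last 2 libraries, day 3 replicate 5 and day 7 replicate 5, an alternative chosen after the data were seen. The tissue labels matched the defining genes, since the muscle actin gene *Acta1* had a mean of 32612 FPKM in muscle with no injury and the endothelial adhesion gene *Cdh5* a mean of 29.6 FPKM.

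**Figure D1:**
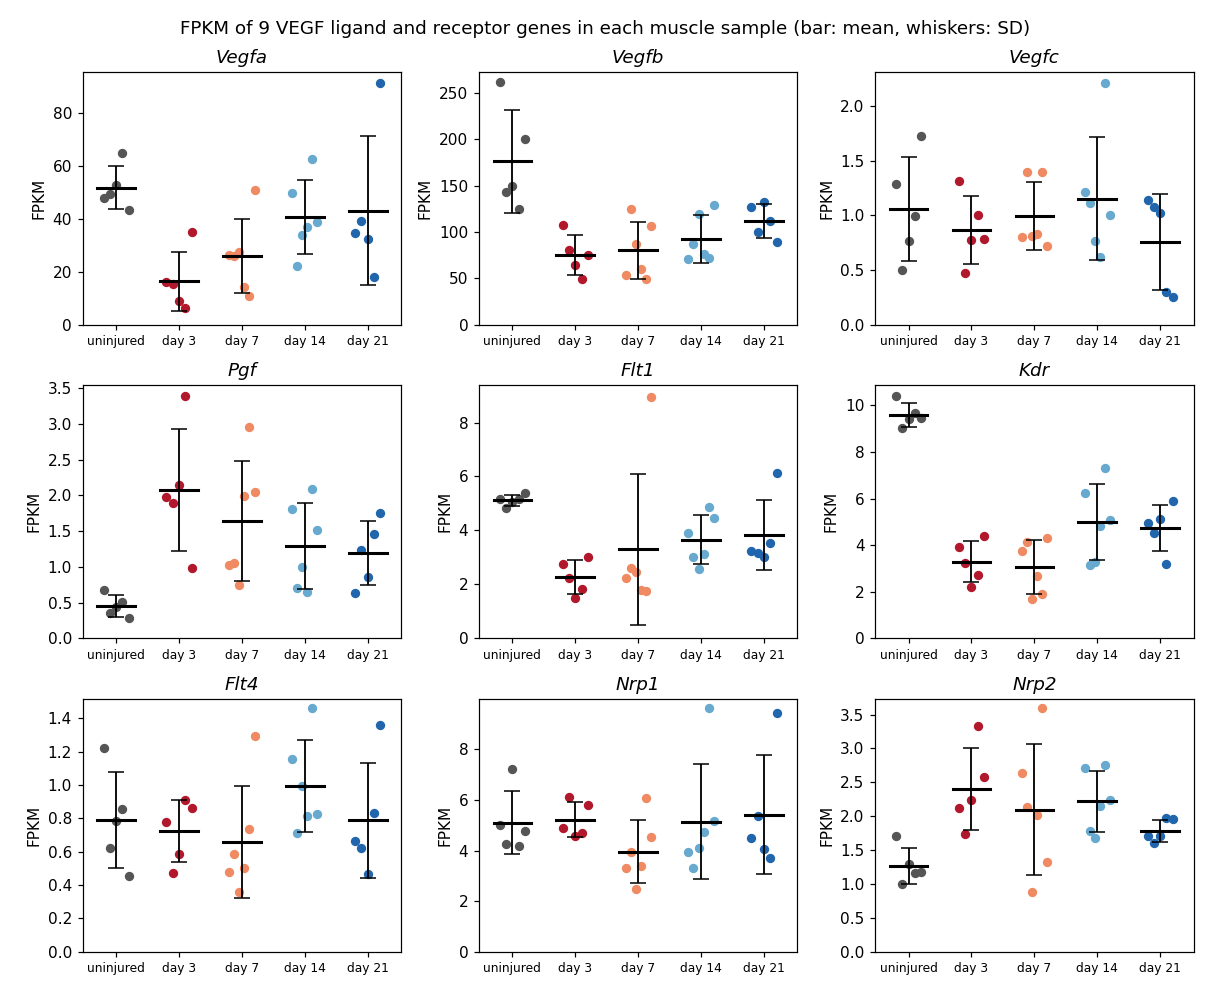
FPKM of the 9 VEGF ligand and receptor genes (vertical axes from 0, a scale for each gene) in each of 27 muscles, by group along the horizontal axis. Points are samples, the thick bar is the group mean and the whiskers are the SD. All injured samples of *Kdr* lie at 7.32 FPKM or less, below the lowest muscle with no injury at 9.01.

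Of the 9 genes, 6 changed on day 3 relative to muscle with no injury, with *Vegfa*, *Vegfb*, *Flt1* and *Kdr* lower and *Pgf* and *Nrp2* higher, where 23.4% of all tested genes were higher and 19.8% were lower. On day 7, 5 had changed, the same 4 lower and *Pgf* higher, against 15% higher and 14.4% lower of all tested genes. On day 14, *Vegfb* and *Kdr* were lower and *Pgf* and *Nrp2* higher, against 9.02% higher and 11.3% lower, and on day 21 *Kdr* alone passed the test, lower, against 1.74% higher and 1.69% lower. *Vegfc*, *Flt4* and *Nrp1* passed the test at none of the 4 time points. Without the 2 libraries that lay nearest to each other's groups, 6, 3, 4 and 1 of the 9 genes passed on days 3, 7, 14 and 21. The calls lost were those of *Vegfa* and *Flt1* on day 7. Without these libraries *Vegfb* stood at -1.22 and -1.04, and *Kdr* at -1.42 and -1.34, on days 3 and 7, while *Vegfc* stood at -0.11 and -0.08, *Flt4* at -0.08 and -0.13, and *Nrp1* at 0.0071 and -0.42, the last 3 genes not passing. The samples did not overlap with muscle with no injury for 6, 3, 1 and 1 of the 9 genes on days 3, 7, 14 and 21, against 36.3%, 12.6%, 15.7% and 10.4% of all tested genes. All 4 comparisons share the same 5 muscles with no injury. In bulk tissue, fewer cells of a type and less RNA per cell cannot be told apart.

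**Figure D2:**
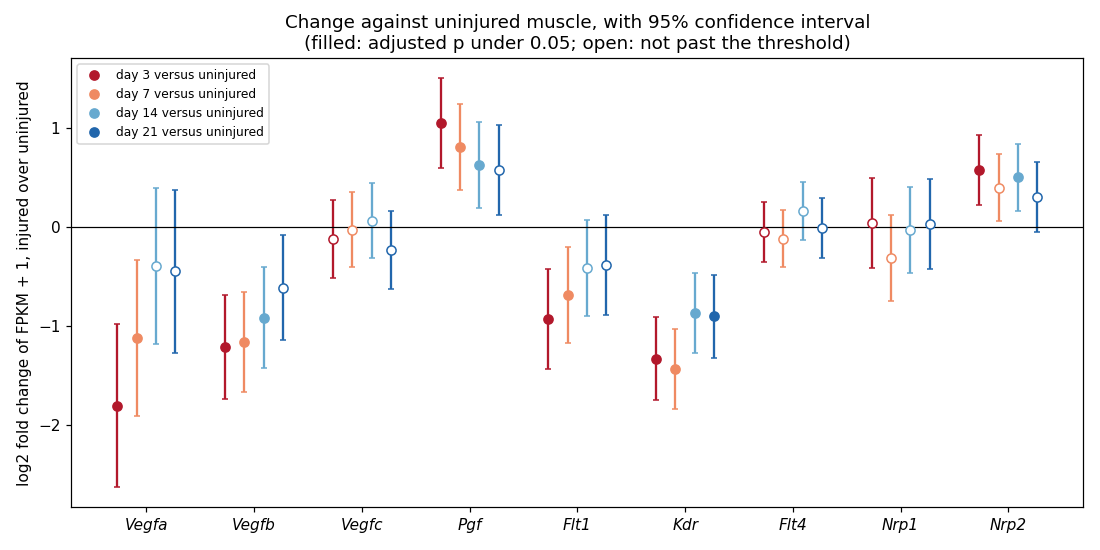
Fitted log2 fold change of FPKM + 1 (vertical axis) for each of the 9 genes on day 3, 7, 14 and 21 relative to muscle with no injury, with 95% confidence intervals from the limma fit. Filled points passed an adjusted p of 0.05. *Kdr* is filled at all 4 time points, and the points of *Vegfa*, *Flt1* and *Pgf* that lie farthest from 0 are those of day 3.

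Among the ligands, *Vegfa* (ENSMUSG00000023951, chr17:46016993-46032369, minus strand) stood at 48.0, 49.5, 53.0, 64.9 and 43.6 FPKM in the 5 muscles with no injury. On day 3 it stood at 16.4, 15.3, 9.02, 6.51 and 35.1 FPKM, so every day 3 sample lay below every muscle with no injury, and the library labelled day 3 replicate 5 was the highest. On day 7 the lowest, median and highest were 10.8, 26.1 and 51.1 FPKM, on day 14 they were 22.2, 38.0 and 62.8 FPKM, and on day 21 the samples stood at 34.5, 39.2, 32.3, 18 and 91.3 FPKM. From day 7 on, the groups overlapped with muscle with no injury.

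The mean of *Vegfa* thus went from 51.8 ± 8.05 FPKM (SD, n = 5) with no injury to 16.5 ± 11.2 FPKM on day 3 (n = 5), and to 43.1 ± 28.1 FPKM on day 21 (n = 5). Its fitted log2 change was -1.8 ± 0.40 (SE) on day 3 (limma, adjusted p = 0.000773) and -1.12 ± 0.38 on day 7 (adjusted p = 0.0296). At days 14 and 21 the log2 changes of -0.39 and -0.45 did not pass (adjusted p = 0.481 and 0.572), and the 95% interval on day 21 ran from -1.27 to 0.37. Without the 2 libraries the change was -2.12 on day 3 and -0.91 on day 7, where the adjusted p became 0.0559. The call on day 7 was also lost when uninjured replicate 3 or 4 or day 7 replicate 4 or 5 was left out, with an adjusted p of up to 0.0861, and with no filter on low values (adjusted p = 0.0697) or quantile normalization (0.102). After the rescaling to a common sum and subtraction of its median, *Vegfa* stood at -1.52, -0.89, -0.22 and -0.37 on days 3, 7, 14 and 21, and of these comparisons only day 3 passed the test on the rescaled values, while the unsubtracted change on day 14 was above 0 (0.07).

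*Vegfb* (ENSMUSG00000024962, chr19:6982473-6987651, minus strand), whose product binds VEGFR1, had the highest FPKM of the 4 ligands in every sample except day 21 replicate 5. It stood at 262, 143, 149, 125 and 201 FPKM with no injury and at 107, 80.3, 64.3, 49.3 and 75.0 FPKM on day 3. All samples of day 3 and of day 7, where the lowest, median and highest were 49.0, 73.6 and 124 FPKM, lay below the lowest muscle with no injury. On day 14 the range was 70.5 to 129 FPKM with a median of 81.5, and on day 21 the samples stood at 127, 99.5, 132, 112 and 89.0 FPKM, so that 5 of 6 and 3 of 5 samples lay below all muscles with no injury.

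The log2 change of *Vegfb* was -1.21 ± 0.26 on day 3, -1.16 ± 0.25 on day 7 and -0.91 ± 0.25 on day 14 (adjusted p = 0.000527, 0.00148 and 0.0112). On day 21 it was -0.61 ± 0.26 and did not pass (adjusted p = 0.183), with a 95% interval from -1.14 to -0.08. After rescaling to a common sum and subtraction of the median the values were -0.90, -0.91, -0.73 and -0.53, although none of the 4 passed the test on the rescaled values themselves (adjusted p of 0.0965 to 0.565). The ratio of *Vegfa* to *Vegfb* within a sample, which does not depend on any scaling between samples, differed from muscle with no injury at none of the 4 time points (exact permutation tests, adjusted p of 0.2 to 1).

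*Pgf* (ENSMUSG00000004791, chr12:85166635-85177790, minus strand), whose product binds VEGFR1, moved the other way. With no injury it stood at 0.672, 0.360, 0.440, 0.504 and 0.282 FPKM, on 12 to 26 reads per sample. On day 3 it stood at 1.98, 1.90, 2.14, 3.39 and 0.988 FPKM, on 61 to 224 reads, and all 5 samples lay above all muscles with no injury, the lowest being the library labelled day 3 replicate 5. All 6 samples of day 7 also lay above, with a lowest, median and highest of 0.748, 1.53 and 2.96 FPKM. On day 14 the range was 0.644 to 2.09 FPKM, with 5 of 6 samples above, and on day 21 the samples stood at 0.633, 1.24, 0.863, 1.47 and 1.76 FPKM, with 4 of 5 above.

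The group means of *Pgf* were 4.60, 3.63, 2.86 and 2.64 times that with no injury on days 3, 7, 14 and 21. The fitted log2 changes, which the added 1 FPKM makes smaller for a gene this low, were 1.05 ± 0.22, 0.81 ± 0.21 and 0.62 ± 0.21 on days 3, 7 and 14 (adjusted p = 0.000491, 0.0062 and 0.0375), and 0.58 ± 0.22 on day 21, which did not pass (adjusted p = 0.142). The call on day 14 was lost in 7 of 11 fits that left out 1 library of the groups compared (uninjured replicate 2, 3, 4 or 5, or day 14 replicate 1, 5 or 6), with an adjusted p of up to 0.102, and with no filter on low values (0.0851), quantile normalization (0.102) or voom weights on the reads (0.0924). Without the 2 doubted libraries, *Pgf* was higher by 1.19 on day 3 and 0.68 on day 7 and passed at both. After rescaling to a common sum and subtraction of the median it stood at 0.96, 0.68, 0.50 and 0.46, and on the rescaled values it passed on days 3 and 7 (adjusted p = 0.000208 and 0.0031) and not on day 14 (0.0576).

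*Vegfc* (ENSMUSG00000031520, chr8:54077606-54187096, plus strand), the ligand of VEGFR3, was low in all groups, with means of 1.06 ± 0.476 FPKM with no injury (n = 5), 0.870 ± 0.310 on day 3 (n = 5), 0.994 ± 0.315 on day 7 (n = 6), 1.15 ± 0.564 on day 14 (n = 6) and 0.758 ± 0.441 on day 21 (n = 5). It was counted with 7 to 119 reads per sample, and all its groups overlapped. Its log2 changes lay between -0.23 (95% interval -0.63 to 0.16, day 21) and 0.06 (-0.31 to 0.44, day 14). Their direction depended on the scaling. On days 3 and 7 rescaling to a common sum gave 0.28 and 0.36 unsubtracted, and -0.23 and -0.12 after subtraction of the median. On day 14 quantile normalization gave -0.07. *Vegfd*, the other ligand of VEGFR3, was measured beside it, and its log2 changes were 0.45, 0.53 and 0.53 on days 3, 7 and 14 (adjusted p = 0.0312, 0.0159 and 0.0218) and 0.31 on day 21 (adjusted p = 0.303), and with quantile normalization the day 3 value was 0.26 and did not pass (adjusted p = 0.223).

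As a share of the summed FPKM of the 4 ligand genes, *Vegfb* and *Vegfa* together made up nearly all of the ligand transcript in every group. *Vegfb* held 75.6% ± 7.37 (SD, n = 5) with no injury and 79.9% ± 7.31 on day 3 (n = 5), and *Vegfa* held 23.7% ± 7.37 and 16.5% ± 8.49. *Pgf* held 0.199% ± 0.0546 with no injury, 2.56% ± 1.85 on day 3 and 0.773% ± 0.308 on day 21 (n = 5).

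The ratio of *Pgf* to *Vegfa*, which moved in opposite directions, was higher than with no injury at all 4 time points. *Pgf* was 0.014, 0.0073, 0.0083, 0.0078 and 0.0065 times *Vegfa* with no injury and 0.121, 0.124, 0.237, 0.520 and 0.0281 times on day 3. The ratio lay above that of every muscle with no injury in 5 of 5, 6 of 6, 6 of 6 and 5 of 5 samples on days 3, 7, 14 and 21. Its geometric mean was 16.5, 7.53, 3.58 and 3.56 times that with no injury (two-sided exact permutation tests, adjusted p = 0.0171, 0.0152, 0.0152 and 0.0171 over 28 tests of 7 ratios). The unadjusted p of these 4 tests were 0.00794 with 5 samples against 5 and 0.00216 with 5 against 6, the smallest that these numbers of samples can give. Without the 2 libraries that lay nearest to each other's groups, none of the 28 tests of the 7 ratios changed its call. Leaving out any 1 library moved the log2 difference of the ratio within 3.57 to 4.62 on day 3 and within 1.47 to 2.01 on day 21, and it passed throughout. Thus *Pgf* relative to *Vegfa* was still above all muscles with no injury on day 21, where neither gene alone passed the test.

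**Figure D3:**
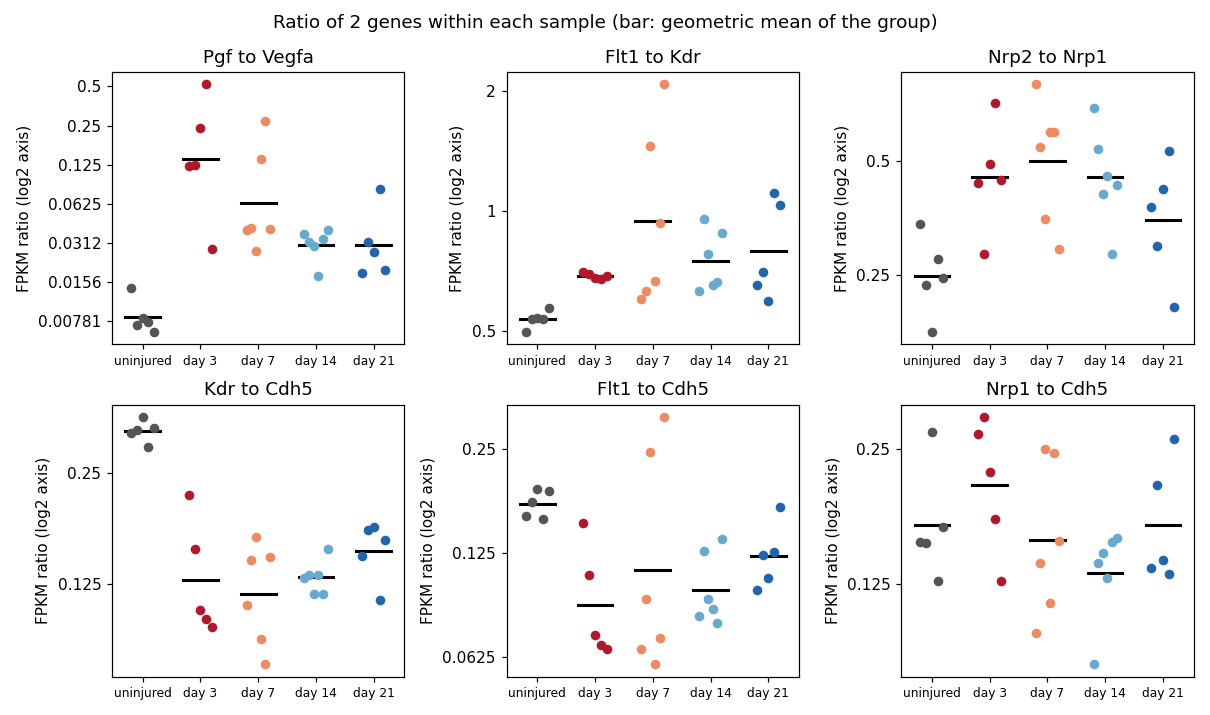
Ratio of the FPKM of 2 genes within each sample (vertical log2 axes) by group. Points are samples and bars are geometric means. *Pgf* to *Vegfa* and *Flt1* to *Kdr* lie above, and *Kdr* to *Cdh5* below, all muscles with no injury in every injured sample, whereas *Nrp1* to *Cdh5* overlaps in all groups.

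Among the receptors, *Kdr* (ENSMUSG00000062960, chr5:75932827-75978458, minus strand), the main signaling receptor for VEGF-A, was the only one of the 9 genes whose injured samples all lay below muscle with no injury at every time point. It stood at 10.4, 9.01, 9.39, 9.67 and 9.43 FPKM with no injury, a narrow spread with a coefficient of variation of 5.44%. On day 3 it stood at 3.93, 3.22, 2.19, 2.71 and 4.40 FPKM, and on day 7 the lowest, median and highest were 1.68, 3.21 and 4.30 FPKM. On day 14 they were 3.17, 4.95 and 7.32 FPKM, and on day 21 the samples stood at 4.96, 4.52, 5.10, 3.20 and 5.91 FPKM.

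The mean of *Kdr* was 34.3%, 32%, 52.0% and 49.4% of that with no injury on days 3, 7, 14 and 21. The log2 changes were -1.33 ± 0.20, -1.43 ± 0.19, -0.87 ± 0.19 and -0.90 ± 0.20 (adjusted p = 1.85e-05, 1.98e-05, 0.00349 and 0.0151). The log2 difference was -0.10 from day 3 to day 7 and 0.56 ± 0.19 from day 7 to day 14, and the latter did not pass over all genes (unadjusted p = 0.00548, adjusted p = 0.217). From day 14 to day 21 the log2 difference was -0.03, with a 95% interval from -0.43 to 0.37. Leaving out any 1 library of the groups compared kept the day 21 change between -0.97 and -0.79 (adjusted p of 0.0149 to 0.0421). After rescaling to a common sum and subtraction of the median, *Kdr* stood at -1.15, -1.29, -0.73 and -0.83, and on the rescaled values themselves it passed on days 3 and 7 (adjusted p = 0.0351 and 0.00982) and not on days 14 and 21 (0.202 and 0.266).

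*Flt1* (ENSMUSG00000029648, chr5:147561604-147726011, minus strand), the receptor for VEGF-A, VEGF-B and placental growth factor, stood at 5.18, 4.83, 5.06, 5.16 and 5.38 FPKM with no injury, with a coefficient of variation of 3.91%. On day 3 it stood at 2.75, 2.24, 1.49, 1.83 and 3.02 FPKM, all below. On day 7 it stood at 2.25, 2.59, 2.44, 1.78 and 1.75 FPKM in 5 samples and at 8.96 FPKM in replicate 6, which was the highest of all 27 samples. On day 14 the lowest, median and highest were 2.56, 3.53 and 4.85 FPKM, with 5 of 6 samples below, and on day 21 the samples stood at 3.23, 3.18, 3.03, 3.55 and 6.12 FPKM, with 4 of 5 below.

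The log2 change of *Flt1* was -0.93 ± 0.24 on day 3 (adjusted p = 0.0034) and -0.68 ± 0.23 on day 7 (adjusted p = 0.0301). Those on days 14 and 21 were -0.42 and -0.38 and did not pass (adjusted p = 0.210 and 0.405). Without day 7 replicate 6 the change on day 7 was -0.96 (adjusted p = 0.000123). The call on day 7 was lost when any 1 of 7 other libraries was left out (uninjured replicate 1, 3, 4 or 5, or day 7 replicate 1, 4 or 5), with an adjusted p of up to 0.079, and without the 2 doubted libraries the change was -0.59 (adjusted p = 0.0776). It was also lost with no filter on low values (0.0681) and in a fit of only these 2 groups (0.0991). After rescaling to a common sum and subtraction of the median the values were -0.81, -0.61, -0.31 and -0.33, and none of the 4 passed on the rescaled values.

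The ratio of the 2 receptors within a sample also changed. *Flt1* was 0.497, 0.536, 0.539, 0.534 and 0.570 times *Kdr* with no injury and 0.701, 0.694, 0.679, 0.673 and 0.687 times on day 3, and at each time point every injured sample lay above every muscle with no injury. The geometric mean of the ratio was 1.29, 1.77, 1.40 and 1.48 times that with no injury on days 3, 7, 14 and 21 (exact permutation tests, adjusted p = 0.0171, 0.0321, 0.0171 and 0.0171). The day 7 ratios ran from 0.599 to 2.08, with replicate 6 the highest and replicate 3 at 1.46 next, and without replicate 6 the log2 difference on day 7 was 0.59 in place of 0.82. Leaving out any 1 of the 5 muscles with no injury ended the call on day 7, with an adjusted p of up to 0.0667.

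*Flt4* (ENSMUSG00000020357, chr11:49609263-49652739, plus strand), the receptor for VEGF-C and VEGF-D, had means of 0.789 ± 0.288 FPKM with no injury (n = 5), 0.724 ± 0.185 on day 3 (n = 5), 0.660 ± 0.336 on day 7 (n = 6), 0.994 ± 0.277 on day 14 (n = 6) and 0.788 ± 0.346 on day 21 (n = 5), on 50 to 212 reads per sample. All its groups overlapped with muscle with no injury. Its log2 changes were between -0.12 (95% interval -0.40 to 0.17, day 7) and 0.16 (-0.13 to 0.45, day 14). Rescaling to a common sum turned them above 0 on days 3, 7 and 21 when unsubtracted (0.32, 0.18 and 0.06). After subtraction of the median they were -0.19, -0.30 and -0.05. Of the markers of lymphatic endothelium, where *Flt4* is best known, *Prox1*, *Mmrn1* and *Reln* were under the filter on low values with group means of at most 0.22 FPKM. *Pdpn*, which fibroblasts also express, rose by 2.38 on the log2 scale on day 3 (adjusted p = 6.41e-07) beside *Lyve1* at 0.58 (adjusted p = 0.0498). The summed FPKM of these 5 genes was 2.10 to 3.91 with no injury and 14.8 to 23.4 on day 3. This sum came mainly from *Pdpn* and *Lyve1* and cannot be read as lymphatic endothelium alone. With quantile normalization, 1 of these 2 tested genes was higher on day 3. The listed marker *Ccl21a*, whose symbol stands on more than 1 row, was left out. As a share of the summed FPKM of the 3 receptor genes, *Kdr* went from 61.9% ± 0.291 with no injury (n = 5) to 52.2% ± 1.74 on day 3 and 51.2% ± 7.60 on day 21, and *Flt4* from 5.04% ± 1.58 to 11.9% ± 3.40 and 8.30% ± 2.26.

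Since *Kdr* and *Flt1* are expressed by endothelial cells, their changes were set beside 12 other endothelial genes. The summed FPKM of these 12 was 171 to 242 with no injury, 135 to 303 on day 3, 98.8 to 235 on day 7, 155 to 400 on day 14 and 188 to 305 on day 21, and its mean was 0.835, 0.822, 1.11 and 1.02 times that with no injury. Of the 12 genes, *Cldn5*, a tight junction gene, and *Tek*, the receptor for angiopoietins, fell on day 3 (19.8% of all tested genes were lower). *Cldn5* fell on day 7 (14.4% lower), *Ramp2*, a co-receptor for adrenomedullin, rose on day 14 (9.02% higher), and none of the 12 passed on day 21. Their median log2 change was -0.28, -0.24, 0.14 and 0.04 at the 4 time points, against 0.01, 0.03, 0.02 and 0.01 over all tested genes. With a common sum, 3 of the 12 were higher and 0 lower on day 3, where 6868 of all 14630 genes were higher and 322 lower. The median of the 12 less that of all genes was then -0.09. The gene with the highest mean of the 12, *Egfl7*, stood at -0.47, -0.52, 0.02 and 0.18, none of which passed.

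*Cdh5*, which encodes VE-cadherin of endothelial junctions, had log2 changes of -0.23, -0.26, 0.30 and 0.03 that did not pass (adjusted p of 0.429 to 0.967). Within a sample, *Kdr* was 0.321, 0.327, 0.354, 0.293 and 0.331 times *Cdh5* with no injury, 0.218, 0.155, 0.107, 0.1 and 0.0959 times on day 3, and 0.149, 0.175, 0.178, 0.113 and 0.164 times on day 21. On day 7 the ratio ran from 0.076 to 0.168 and on day 14 from 0.117 to 0.155. Every injured sample therefore had less *Kdr* per *Cdh5* than any muscle with no injury, and the geometric mean was 0.395, 0.363, 0.402 and 0.475 times that with no injury (exact permutation tests, adjusted p = 0.0171, 0.0152, 0.0152 and 0.0171). This held when any 1 library was left out, with log2 differences of -1.56 to -0.96 over the 4 time points.

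The ratio of *Flt1* to *Cdh5* was 0.508 and 0.564 times that with no injury on days 3 and 14, with all samples below (adjusted p = 0.0171 for both), and 0.704 times on day 21 (adjusted p = 0.037), where leaving out uninjured replicate 2, 3 or 5 took the adjusted p to as much as 0.0523. On day 7 it was 0.642 times (adjusted p = 0.270), with day 7 replicates 3 and 6 above all muscles with no injury at 0.244 and 0.309. *Nrp1* to *Cdh5* passed at none of the 4 time points (adjusted p of 0.231 to 1). Changes in macrophage, fibroblast and muscle fibre genes ran alongside: the summed FPKM of 8 macrophage genes went from 17.5 to 26.5 with no injury to 329 to 2186 on day 3, that of 8 fibroblast genes from 61.6 to 147 to 437 to 894, and that of 8 muscle fibre genes from 87584 to 104310 to 22441 to 65911, with none of these genes at 0 in all samples of a group. The fall of the fibre genes depended on the scaling. As deposited, 7 of the 8 were lower on day 3, where 19.8% of all tested genes were lower. With a common sum 3 of the 8 were lower, where 322 of all 14630 genes were, and with quantile normalization 2 were lower. On day 21 the means of the sums for macrophage, fibroblast and muscle fibre genes were 2.12, 2.01 and 0.923 times those with no injury. The part of these 3 sets of genes in the changes of the VEGF genes was not tested.

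**Figure D4:**
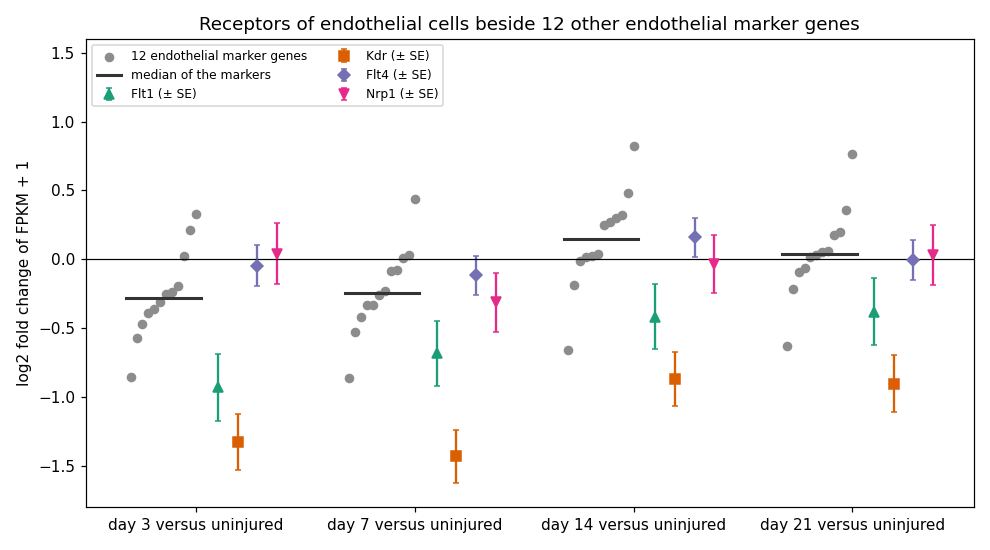
Log2 fold change of FPKM + 1 (vertical axis) of 12 endothelial marker genes (grey points, sorted, with their median as a bar) and of *Flt1*, *Kdr*, *Flt4* and *Nrp1* (coloured symbols with SE) at each time point relative to muscle with no injury. *Kdr* lies below all 12 marker genes at each time point, at -0.90 on day 21 where the marker median was 0.04.

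Among the co-receptors, *Nrp1* (ENSMUSG00000025810, chr8:128358604-128503363, plus strand), which binds VEGF-A together with VEGFR2, had means of 5.10 ± 1.25 FPKM with no injury (n = 5), 5.21 ± 0.697 on day 3 (n = 5), 3.96 ± 1.23 on day 7 (n = 6), 5.15 ± 2.29 on day 14 (n = 6) and 5.42 ± 2.34 on day 21 (n = 5). The log2 changes were 0.04, -0.31, -0.03 and 0.03, and none passed (adjusted p of 0.272 to 0.958), and the 95% interval on day 21 was from -0.42 to 0.49. These directions depended on the scaling, since quantile normalization gave -0.05 on day 3. Rescaling to a common sum gave 0.29 on day 7 and 0.36 on day 14 unsubtracted, and -0.18 and 0.07 after subtraction of the median. On that rescaling *Nrp1* also passed as higher on day 3, by 0.73 (adjusted p = 0.0158), of which 0.23 was left after subtraction of the median. Single samples stood far above the others of their group on day 14 and day 21, at 9.64 and 9.46 FPKM, both replicate 5.

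*Nrp2* (ENSMUSG00000025969, chr1:62703285-62818695, plus strand), which binds VEGF-C and class 3 semaphorins, stood at 1.71, 1.0, 1.29, 1.16 and 1.18 FPKM with no injury and at 2.13, 1.73, 2.23, 3.33 and 2.58 FPKM on day 3, all above. On day 7 the lowest, median and highest were 0.877, 2.07 and 3.60 FPKM, with 4 of 6 samples above and 1 below, and the highest was the library labelled day 7 replicate 5. On day 14 they were 1.68, 2.19 and 2.75 FPKM with 5 of 6 above, and on day 21 the samples stood at 1.70, 1.6, 1.71, 1.97 and 1.95 FPKM with 2 of 5 above. The log2 changes of 0.58 ± 0.17 on day 3 and 0.50 ± 0.16 on day 14 passed (adjusted p = 0.00828 and 0.0317), and those of 0.40 ± 0.16 on day 7 and 0.30 ± 0.17 on day 21 did not (adjusted p = 0.0674 and 0.330). With quantile normalization the change was 0.38 on day 3 and also 0.38 on day 14, and neither passed (adjusted p = 0.0518 and 0.0877).

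The day 7 value of *Nrp2* was 0.27 without the 2 doubted libraries, and passed when day 7 replicate 3 or replicate 6 was left out (0.53 and 0.47). The day 14 call was lost in 7 of 11 fits that left out 1 library (uninjured replicate 2, 3, 4 or 5, or day 14 replicate 1, 4 or 5), with an adjusted p of up to 0.0789, and with no filter on low values (0.0674). After rescaling to a common sum and subtraction of the median *Nrp2* stood at 0.60, 0.41, 0.49 and 0.27, and on the rescaled values it passed on days 3 and 7 (adjusted p = 0.00251 and 0.0132) and not on days 14 and 21 (0.0586 and 0.705). *Nrp2* relative to *Nrp1* within a sample was 0.341, 0.235, 0.178, 0.277 and 0.246 with no injury, and its geometric mean was 1.81, 2.0, 1.81 and 1.40 times that on days 3, 7, 14 and 21 (exact permutation tests, adjusted p = 0.0278, 0.0202, 0.0173 and 0.175). The samples above all muscles with no injury numbered 4 of 5, 5 of 6, 5 of 6 and 3 of 5. *Nrp2* made up 20.2% ± 3.76 of the summed neuropilin FPKM with no injury (n = 5) and 33.8% ± 7.96 on day 7 (n = 6).

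Ordered by mean level, *Vegfa*, *Vegfb*, *Flt1* and *Kdr* were highest with no injury, and the lowest group was day 3 for the first 3 and day 7 for *Kdr*. *Pgf* and *Nrp2* were highest on day 3 and lowest with no injury. For all 9 genes the neighbours in this order overlapped in their ranges, with the exception of *Kdr*, where muscle with no injury was separate from day 14, the next group. Between consecutive time points, none of the 9 genes passed the test in any of the 3 comparisons (limma, where 0.0478%, 0.335% and 0% of tested genes passed from day 3 to 7, 7 to 14 and 14 to 21, the last with 909 genes at an unadjusted p under 0.05). *Vegfa* was higher on day 7 than on day 3 by 0.68 ± 0.38 and higher on day 14 than on day 7 by 0.72 ± 0.36 on the log2 scale, neither of which passed (adjusted p = 0.404 and 0.419). Without the 2 doubted libraries the first of these was 1.21 ± 0.36 and passed (adjusted p = 0.0231), and the number of genes that passed from day 3 to day 7 went from 7 to 2265.

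The genes whose log2(FPKM + 1) followed a member most closely over the 27 samples differed between members. For *Vegfa* they were *Mlxipl*, a glucose-responsive transcription factor (r = 0.939), *Slc38a3*, an amino acid transporter (0.932), and *mt-Nd5*, a mitochondrially encoded subunit of complex I (0.930). For *Vegfb* they were the mitochondrial genes *Sdhc* (0.967), *Slc25a3* (0.959) and *Got2* (0.953), and these correlations were 0.920 to 0.942 after the group means were removed. For *Flt1* they were *Alpl* (0.936), the water channel gene *Aqp1* (0.928) and the kinase gene *Pim3* (0.908), and for *Kdr* the glycerol channel gene *Aqp7* (0.858), *Efr3b* (0.846) and *Ank2* (0.842). For *Ank2* the value fell to 0.467 after the group means were removed.

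For *Pgf* they were *Jdp2* (0.878), *Edem2* (0.871) and *Map1s* (0.866), and for *Nrp2* the fibronectin receptor subunit *Itga5* (0.885), *Apln*, which encodes the vascular peptide apelin (0.882), and *Psd* (0.882). For *Nrp1* they were *Pik3r6* (0.833), *Zfp827* (0.788) and *Slc50a1* (0.784), and for *Flt4* *Arhgap27* (0.794), the caveolin gene *Cav2* (0.781) and the laminin receptor subunit *Itga6* (0.779). The closest genes to *Vegfc* had the lowest values, *Thada* (0.687), *Pabpc1l* (0.655) and 1 of the rows with the symbol *Ccl21a* (0.644). Among the members themselves, *Flt1* followed *Vegfa* (r = 0.839, and 0.740 after the group means were removed) and *Kdr* followed *Vegfa* (0.771 and 0.736). These correlations describe samples that share injury state, depth and scaling.

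Of 9 genes that regulate hypoxia-inducible factors, 8 were tested, and 2 rose and 4 fell on day 3, 1 and 3 on day 7, 0 and 4 on day 14, and 0 and 1 on day 21. Of all tested genes, 23.4% were higher and 19.8% lower on day 3, and 15% and 14.4% on day 7. These shares were 9.02% and 11.3% on day 14, and 1.74% and 1.69% on day 21. After rescaling to a common sum, 2 of the 8 rose and 1 fell on day 3, where 6868 of all 14630 genes were higher and 322 lower, and none of the 8 passed on day 21. *Hif1a*, the oxygen-regulated subunit, rose by 0.98 ± 0.20 on the log2 scale (adjusted p = 0.000416), and *Egln1*, the main oxygen-sensing prolyl hydroxylase that marks it for degradation, fell by 1.5 ± 0.25 on day 3 (adjusted p = 5.58e-05) and by 0.90 ± 0.25 on day 21 (adjusted p = 0.0486, and 0.0884 with quantile normalization). Of 12 hypoxia response targets, 2 rose and 4 fell on day 3, 1 and 3 on day 7, 0 and 3 on day 14, and 0 and 1 on day 21. Their median log2 change on day 3 was -0.00029, against 0.01 over all tested genes. The 6 of 12 that passed on day 3 compare with 23.4% higher and 19.8% lower of all tested genes. With a common sum, 4 were higher and 1 lower on day 3, and none passed on day 21, where *Pfkfb3* had an adjusted p of 0.055. The glucose transporter gene *Slc2a1* rose by 0.85 ± 0.20 on day 3 (adjusted p = 0.00138) and *Pfkfb3*, a regulator of glycolysis, fell by 2.23 ± 0.32 on day 3 (adjusted p = 7.32e-06) and by 1.65 ± 0.32 on day 21 (adjusted p = 0.00468).

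Of 18 genes of VEGF receptor signal transduction, 17 were tested, and 7 rose and 4 fell on day 3, 5 and 3 on day 7, 2 and 2 on day 14, and 0 and 2 on day 21. The shares of all tested genes were 23.4% higher and 19.8% lower on day 3, and 15% and 14.4% on day 7. They were 9.02% and 11.3% on day 14, and 1.74% and 1.69% on day 21. With a common sum, 11 rose and 0 fell on day 3, where 6868 of all 14630 genes were higher and 322 lower, and none passed on day 21. Unsubtracted, *Ptpn11* then stood at 0.04 and *Pik3ca* at -0.11 on day 3, against a median of 0.51 over all tested genes. *Ptpn6*, a phosphatase abundant in blood cells, rose by 3.24 ± 0.43 on day 3 (adjusted p = 3.56e-06), and *Pik3ca*, the catalytic subunit of PI3 kinase, fell by 0.81 ± 0.13 (adjusted p = 3.1e-05). On day 21 the 2 that were lower were *Ptpn11*, a phosphatase that relays receptor signals (-0.60 ± 0.13, adjusted p = 0.013), and *Pik3ca* (-0.50 ± 0.13, adjusted p = 0.0333). With quantile normalization, 1 of the 17 was lower on day 21 and 0 were higher. Of 12 genes that modulate VEGF, mostly of the matrix or co-receptors, 11 were tested. Of these, 7, 6, 3 and 1 rose at the 4 time points and 0 fell, beside the same shares of all tested genes. The list also holds the adaptor genes *Gipc1* and *Dab2* and the ligand gene *Vegfd*. *Vegfd*, described above, is counted among those that rose on days 3, 7 and 14. After rescaling to a common sum, 9 rose and 0 fell on day 3, where 6868 of all 14630 genes were higher, and none of the 11 passed on day 21. *Thbs2*, an inhibitor of blood vessel growth, rose by 2.44 ± 0.26 on day 3 (adjusted p = 3.1e-07), and the heparan sulfate proteoglycan gene *Sdc2* rose by 0.92 ± 0.16 on day 3 and by 0.58 ± 0.16 on day 21 (adjusted p = 6.92e-05 and 0.0398, the latter 0.106 with quantile normalization).

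For the 3 lists that follow, the shares of all tested genes were 23.4% higher and 19.8% lower on day 3, and 15% and 14.4% on day 7. They were 9.02% and 11.3% on day 14, and 1.74% and 1.69% on day 21. Of 10 genes linked to endothelial tip cells, which lead new vessel sprouts, 4 rose and 1 fell on day 3, 2 and 1 on day 7, 2 and 0 on day 14, and none passed on day 21. *Plaur*, the urokinase receptor gene that macrophages also express, rose by 2.23 ± 0.38 (adjusted p = 5.81e-05), and the Notch ligand gene *Dll4* fell by 0.89 ± 0.24 (adjusted p = 0.00374). Of 7 genes listed for the angiopoietin and Tie pathway, 6 were tested, and 1 rose and 3 fell on day 3. The 1 that rose was *Angptl4*, by 1.93 ± 0.38 (adjusted p = 0.000258). It is an angiopoietin-like inhibitor of lipoprotein lipase and not a ligand of the TIE receptors, so no other gene of the list was called higher. *Ptprb*, the phosphatase that holds TIE2 in check, fell by 0.62 ± 0.21 (adjusted p = 0.0172). Of 12 semaphorin and plexin genes, 7 were tested, and 2 rose and 1 fell on day 3, with a log2 change of 0.84 ± 0.22 for *Plxna1*, a co-receptor of the neuropilins (adjusted p = 0.00289), and of -0.82 ± 0.23 for *Sema3c*, a ligand of neuropilins (adjusted p = 0.00622). On day 21, no gene of these 3 lists passed. With a common sum, 7 tip cell genes, 2 genes of the angiopoietin and Tie list and 4 semaphorin and plexin genes were higher on day 3 and none was lower. Under this scaling 6868 of all 14630 genes were higher and 322 lower. Unsubtracted, *Dll4* stood at -0.21, *Ptprb* at -0.00222 and *Sema3c* at -0.19, against a median of 0.51 over all tested genes.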

How the data were processed

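RNA selected for poly(A) tails from 27 tibialis anterior muscles was sequenced from non-directional libraries. The authors aligned the reads with HISAT2 2.0.5, counted them per gene with featureCounts 1.5.0-p3 and deposited 1 table of FPKM for 54532 genes. The genome build is not given in the sources used here, and the coordinates of the 9 genes are the same as in GENCODE M21 on GRCm38. FPKM multiplied by gene length gave whole reads within 0.1 for all values. The denominators of the FPKM were 0.747 to 1.48 times the reads of the sample, so the values carry a scaling that is not described. Without strand, reads of a gene and of an antisense partner cannot be told apart. No annotated gene with reads shared exonic bases with a member. Splice forms, including soluble VEGFR1, were not separated.

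The 14630 genes that reached 0.5 FPKM in 5 or more samples, all 9 members among them, were tested. Their log2(FPKM + 1) values in all 27 samples entered 1 linear model (limma 3.58.1, R 4.3.3) with the 5 groups as levels, and the prior variance was allowed to follow expression. P-values were two-sided and adjusted by Benjamini-Hochberg over all tested genes within a comparison, at 0.05. Fold changes on this scale understate the change of low genes. Log2 ratios of 2 genes were compared with exact permutation tests (Python 3.11.15, numpy 2.4.6), adjusted over 28 tests. The fit was tested on simulated data. The members, gene lists and tests were chosen with earlier results of these data known. Named genes were the 9 members, *Cdh5*, *Vegfd*, the 3 genes most correlated with each member, the gene with the highest mean of each marker list, and in each partner list the called genes with the largest increase and decrease at days 3 and 21. *Lyve1*, *Prox1*, *Mmrn1*, *Reln*, *Cldn5*, *Tek* and *Ramp2* are named from short lists after their values were seen. Of 8 mural cell genes, 2 rose and 3 fell at day 3, against 23.4% higher and 19.8% lower of all tested genes, and none passed at day 21. The highest mural cell gene, *Acta2*, was higher by 1.12 on day 3. *Lyz2* and *Col1a1*, the highest macrophage and fibroblast genes, were higher by 5.77 and 3.66 at day 3. Promoter windows are from RefSeq, in which all 9 members were matched. The alternatives in filtering and scaling were a pseudocount of 0.1, no filter, a filter at 1 FPKM, quantile normalization, scaling by median ratios and a common FPKM sum. Those in the model were no variance trend, and a block for the replicate number in the title or the letter in the sample description. Others were a separate fit of each pair of groups, voom weights on the recovered reads, and each library left out in turn.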

Additional observations from a re-analysis of the deposited data

Results flagged for a closer look

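Among the 45 sets of values formed by 9 genes in 5 groups, 7 held 1 sample farther from the rest than Dixon's test allows at 95%, where chance gives about 1 in 20. In day 21 replicate 5, *Vegfa* stood at 91.3 FPKM (the others 18 to 39.2), *Flt1* at 6.12 (3.03 to 3.55) and *Nrp1* at 9.46 (3.71 to 5.37). In day 14 replicate 5, *Nrp1* stood at 9.64 FPKM (3.31 to 5.18) and *Vegfc* at 2.21 (0.619 to 1.21). In day 7 replicate 6, *Flt1* stood at 8.96 FPKM (1.75 to 2.59). In uninjured replicate 3, *Nrp1* stood at 7.24 FPKM (4.19 to 5.03). The summed FPKM of the 12 endothelial genes was also highest of its group in day 7 replicate 6, day 14 replicate 5 and day 21 replicate 5, at 235, 400 and 305. Its part in these values was not tested. Day 14 replicate 5 was the highest of its group in 8 of the 9 genes and day 21 replicate 5 in 6 of the 9.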

How the results depend on the processing

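Across the alternatives to the fit, each changing 1 choice, the number of the 9 genes that passed stayed within 1.5 times the value given with the following exceptions. On day 7 (5 genes) it was 3 with no filter, 3 with a common FPKM sum and 3 without both day 3 replicate 5 and day 7 replicate 5. On day 14 (4) it was 2 with no filter, 2 with quantile normalization and 0 with a common sum. On day 21 (1) it was 0 with a common sum and 2 with only the 2 groups compared, and from day 3 to 7 (0) it was 1 without both libraries. Leaving out 1 library of the groups compared gave 6 to 6 genes on day 3, 3 to 6 on day 7, 2 to 4 on day 14 and 1 to 1 on day 21, and 0 between consecutive time points.

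Over all genes, a common sum gave 6513 on day 7 (4296 as given) and 1785 on day 14 (2969). On day 21 (502) the count was 247 with no filter, 294 with quantile normalization, 49 with a common sum, 1477 with only the 2 groups and 283 with voom weights. From day 3 to 7 (7) it was 1 with a pseudocount of 0.1, 17 with no filter, 4 with a minimum of 1, 12 with quantile normalization, 4 with a common sum, 1 with only the 2 groups, 1 with voom weights and 2265 without both libraries. From day 7 to 14 (49) it was 18, 11, 5 and 5 with a pseudocount of 0.1, no filter, a common sum and only the 2 groups, and 28 without both libraries. Without both libraries, days 14 and 21 gave 3515 and 702. Leaving out 1 library gave 5289 to 6202 on day 3, 3251 to 5220 on day 7, 1895 (without day 14 replicate 5) to 3203 on day 14, 190 to 568 on day 21 (lower by more than 1.5 times without uninjured replicate 1, 2, 4 or 5, or day 21 replicate 1 or 2), 2 to 1792 (without day 7 replicate 5; 730 without day 3 replicate 5) from day 3 to 7, 16 to 151 (without day 7 replicate 6) from day 7 to 14, and 0 from day 14 to 21.

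Same-numbered samples deviated from their group means with correlations of -0.521 to 0.566, over 0.1 in 15 of 51 pairs. The median was -0.00315, and 0.02 for samples with the same letter. These values cannot tell whether such samples shared more than a number or letter. With the number or the letter as a block, day 21 gave 795 or 1233 genes and day 3 to 7 gave 3 or 3, *Nrp2* passed on day 7, *Pgf* did not pass on day 14 (adjusted p = 0.0557 and 0.0529), *Flt1* passed on day 14 with the number (and with only the 2 groups, where *Pgf* also passed on day 21), and *Vegfc* on day 7 turned to 0.0166 with the letter.

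Signs turned among values that had not passed. With a common sum, unsubtracted, they were *Vegfc* at 0.28 and 0.36 (days 3 and 7), *Flt4* at 0.32, 0.18 and 0.0622 (days 3, 7 and 21), *Nrp1* at 0.29 and 0.36 (days 7 and 14) and *Vegfa* at 0.0745 (day 14). After subtraction of the median, only *Nrp1* on day 14 stayed turned, at 0.07. With quantile normalization they were *Nrp1* at -0.0514 (day 3) and *Vegfc* at -0.0691 (day 14), and with voom weights *Vegfc* at 0.0743 (day 7). Leaving out 1 library gave *Nrp1* -0.0104 to 0.16, -0.20 to 0.0809 and -0.16 to 0.15 (days 3, 14 and 21), *Vegfc* -0.13 to 0.0834 and -0.0601 to 0.17 (days 7 and 14) and *Flt4* -0.12 to 0.0359 and -0.11 to 0.0757 (days 3 and 21). No ratio changed its call with a pseudocount of 0.1 or without both libraries. Taken as a ratio of group means, which has no test, each ratio stayed within 1 SD of the value given. Leaving out 1 library gave log2 ratio differences of 0.59 to 0.95 for *Flt1* to *Kdr* on day 7, -0.63 to -0.43 for *Flt1* to *Cdh5* and 0.33 to 0.67 for *Nrp2* to *Nrp1* on day 21, of -0.17 to 0.21 and -0.25 to 0.42 for *Vegfa* to *Vegfb* on days 7 and 21, and of -0.25 to 0.0577 and -0.16 to 0.17 for *Nrp1* to *Cdh5* on days 7 and 21. The cause of these differences was not tested. Genes with few reads, *Vegfc*, *Pgf* and *Flt4*, were measured with the least counting precision.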
